A study of Brassica rapa subsp. chinensis with 24 samples.

Results

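Malate is moved between the cytosol and the vacuole, made from phosphoenolpyruvate by way of PEP carboxylase, and broken down again by malic enzymes, and the 10 genes described here cover these steps. They are TDT (AT5G47560), ALMT9 (AT3G18440), the PEP carboxylases PPC1 (AT1G53310), PPC2 (AT2G42600) and PPC3 (AT3G14940), the PEP carboxylase kinases PPCK1 (AT1G08650) and PPCK2 (AT3G04530), the malic enzymes NADP-ME2 (AT5G11670) and NADP-ME4 (AT1G79750), and the malate dehydrogenase NADP-MDH (AT5G58330). The genes were taken by identifier, a fixed set of Arabidopsis locus codes, and all 10 were found among the 20564 identifiers of the count table, on 48 of its 66566 rows. An identifier can label several rows, from 2 for ALMT9, PPCK2 and NADP-ME4 to 8 for PPC2, and no source at hand says whether the rows of 1 identifier are different genes of the crop or forms of 1 gene. Levels were therefore summed per identifier and also followed row by row. TDT was chosen by its fall in SAB leaves at day 18 and by the change of that effect with age. Every contrast of TDT that uses its leaf values is therefore given as a description with no test. TDT is left out of the counts of members called in those contrasts. The other members and the tests were also chosen with earlier results of these data known. Their p-values and counts called are thus not independent of that choice.

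In Arabidopsis, where these genes are known, PEP carboxylase fixes bicarbonate onto phosphoenolpyruvate to give oxaloacetate, which is reduced to malate, a carbon store, an osmolyte and a counter-ion. PEP carboxylase kinases phosphorylate the enzyme and make it less sensitive to inhibition by malate. TDT is the tonoplast dicarboxylate transporter that loads malate into the vacuole of leaf cells, ALMT9 is a vacuolar anion channel of the aluminum-activated malate transporter family, the NADP-malic enzymes decarboxylate malate to pyruvate in the cytosol (NADP-ME2) and the plastid (NADP-ME4), and the plastid NADP-malate dehydrogenase exports reducing power from illuminated chloroplasts as malate.

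The plants were wild type Choy-sum (Brassica rapa subsp. chinensis), a leaf vegetable, grown in peat-moss soil under long days. Seeds of the SAB group had been soaked in a mixed suspension of bacteria, Streptomyces and Agromyces-Bacillus, and seeds of the untreated group in magnesium sulfate solution, so both groups were soaked before sowing. Sequencing covered polyadenylated RNA from entire leaves and entire roots of SAB and untreated plants at day 18, a mature stage before flowering, and at day 8, the true leaf stage, giving 8 groups of 3 separate biological replicates, 24 libraries in all. These are mixtures of cell types, so fewer cells of a type and less RNA per cell cannot be told apart. Library totals lay between 28068078 and 37999455 estimated counts. Levels are given as CPM, edgeR's counts per unit of library size after TMM scaling of all 24 libraries, and are compared only within an identifier or row, since gene lengths were not used. The 6 listed markers of green leaf tissue found in the table were all higher in leaf and the 5 root markers all higher in root, as the tissue labels say. Replicate 3 of untreated roots at day 8 stood apart from its group, with a mean Spearman correlation to the others of 0.962 against 0.975 and 0.976. Several fitted values of day 8 roots that it moved are given also without it, and the others only with it.

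At day 18 in leaf, PPC2 was 5.48-fold, PPC3 4.41-fold and PPCK1 4.20-fold lower in SAB than in untreated plants, and TDT was 5.34-fold lower, while both malic enzymes, PPC1 and NADP-MDH did not pass the test. In edgeR's quasi-likelihood test with Benjamini-Hochberg adjustment over 17706 identifiers, at an adjusted p under 0.05, 4 of the 8 members other than TDT were called lower in SAB leaves and 0 higher. Of all identifiers tested 14.4% were called, 6.52% lower and 7.91% higher. The members were chosen with earlier results of these data known, so their share called is not an independent test. The median log2 fold of these 8 members was -0.49, and that of all identifiers tested was -0.0011. At day 8 in leaf, 0 of these 8 were called by edgeR or DESeq2, where 0.424% of identifiers were called by edgeR. Of the 8, 1 had an unadjusted p under 0.05 in edgeR, as had 1597 of the 17706 identifiers. In roots of day 18 both tools called 0 of 10, against 0.764% of identifiers by edgeR. Of the 10, 4 had an unadjusted p under 0.05 in edgeR, as had 2349 of 18973 identifiers. In roots of day 8 both called 0 of 10, against 0.0738%, and 0 had an unadjusted p under 0.05 in edgeR, against 1947 of 18973 identifiers. PPCK2 was too low in leaf to be tested.

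**Figure D1:**
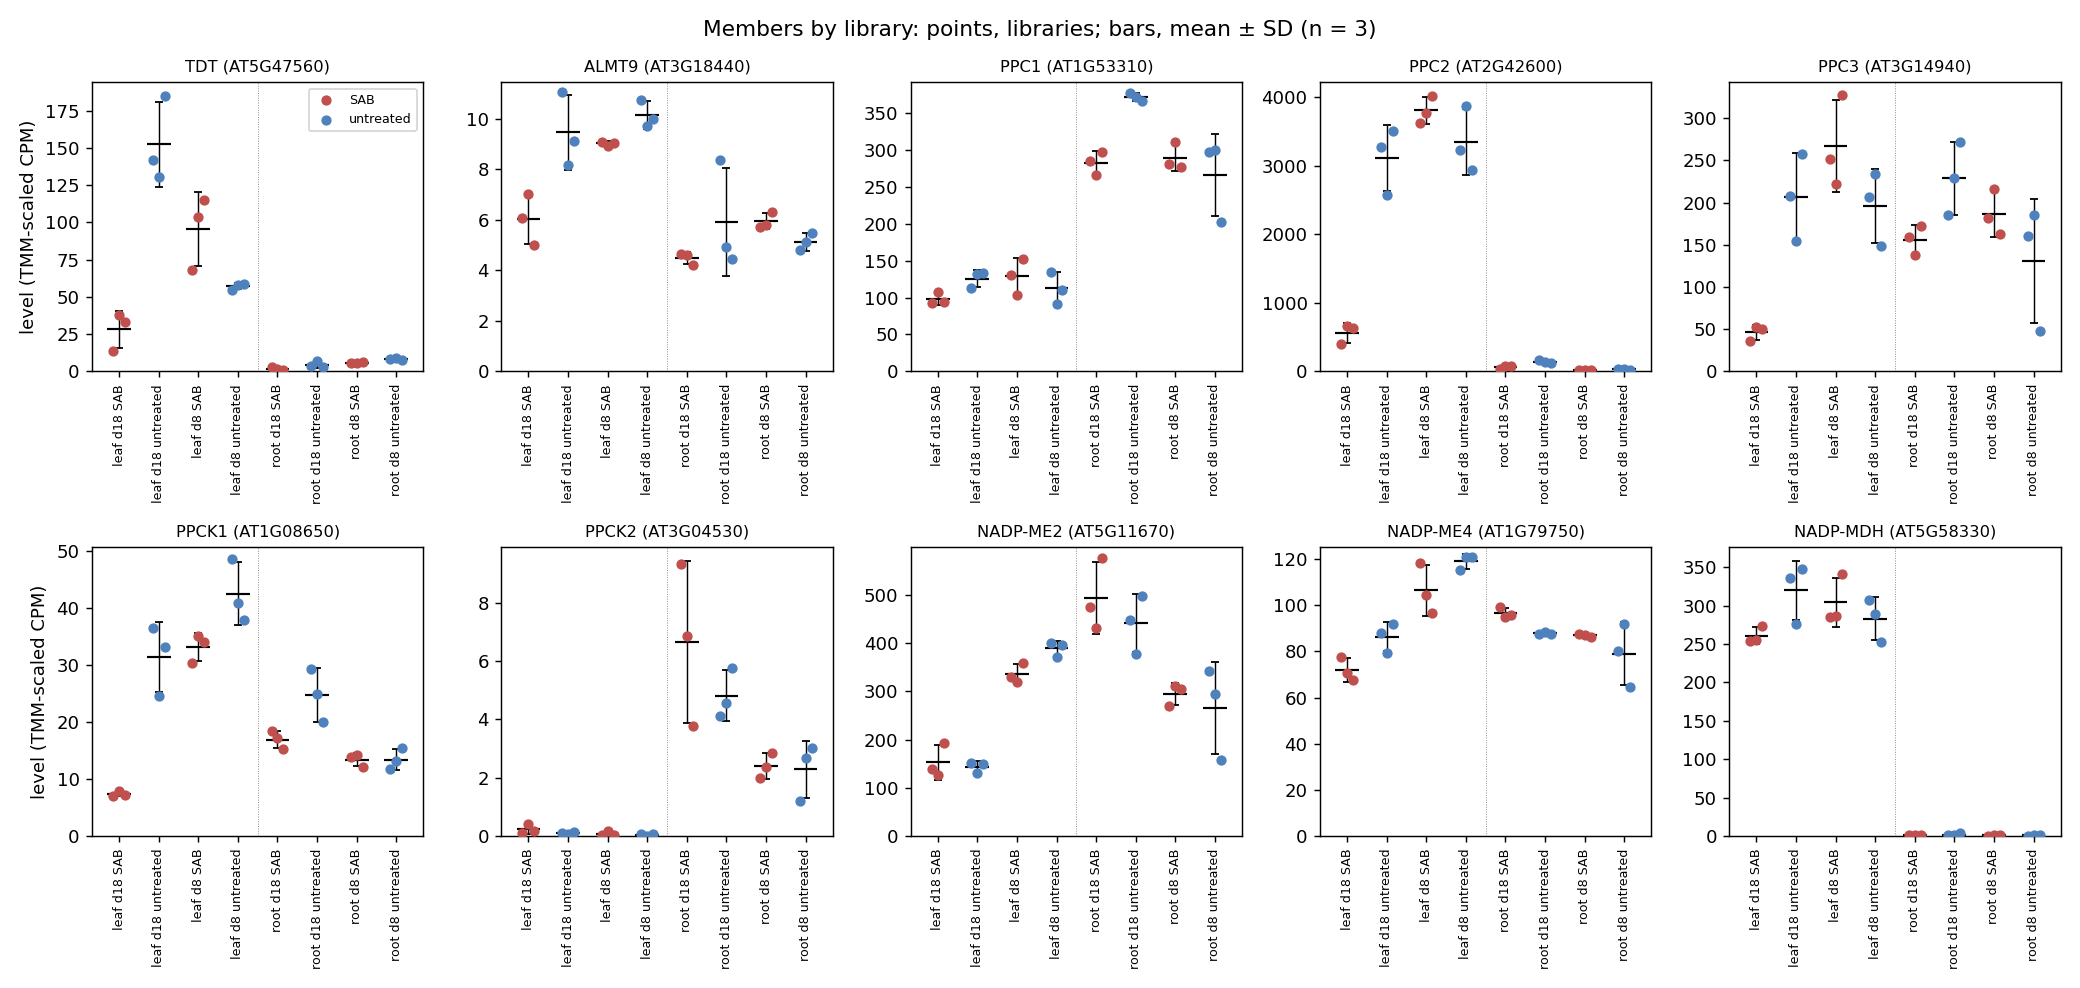
Level of each member in TMM-scaled CPM by tissue, day and treatment; points are libraries, bars the mean ± SD of 3, and each panel has its own axis from 0. PPC2, PPC3, PPCK1 and TDT of day 18 leaves lie lower in all 3 SAB libraries than in all 3 untreated ones. So do ALMT9, PPC1, NADP-ME4 and NADP-MDH, by smaller margins. With 3 libraries a group such separation is a description and no test, and its share among all identifiers is not given. NADP-MDH is near 0 in every root group and PPCK2 near 0 in every leaf group.

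The transporter TDT was higher in every leaf library than in any root library. It stood at 13.8, 37.8 and 32.9 CPM in SAB leaves, against 142, 131 and 185 CPM in untreated leaves of day 18. At day 8 it stood at 68.0, 104 and 115 CPM in SAB leaves, against 54.9, 58.0 and 58.8 CPM in untreated leaves. The treatment groups did not overlap at either day, but their order was opposite: all SAB leaves were lower at day 18 and all were higher at day 8. The log2 fold of SAB over untreated was -2.42 (SE 0.33) at day 18 and 0.73 (SE 0.31) at day 8, and the change between the days was -3.14 (SE 0.45). In roots TDT stood at 2.87, 1.60 and 1.03 CPM in SAB and 3.31, 6.63 and 2.92 CPM in untreated plants of day 18, and at 5.81, 5.45 and 6.37 CPM in SAB and 8.44, 9.13 and 7.35 CPM in untreated plants of day 8. Every SAB root library was lower than every untreated one of its day, and neither difference passed the test, with log2 folds of -1.21 (SE 0.38, adjusted p = 0.208 in edgeR) and -0.51 (SE 0.36, adjusted p = 0.614 in edgeR).

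Among untreated plants TDT was higher in leaf than in root by a log2 ratio of 5.15 (SE 0.41) at day 18 and 2.79 (SE 0.37) at day 8. Untreated leaves of day 18 all lay above those of day 8, with a log2 fold of 1.41 (SE 0.32), and both groups entered the choice of TDT. The order of its 8 groups ran from untreated leaves of day 18 through SAB leaves of day 8, untreated leaves of day 8 and SAB leaves of day 18 to the roots, and only SAB roots of day 8 and untreated roots of day 18 overlapped among neighbours.

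TDT had 6 rows, of which rows 1 and 3 held 57.9% and 38.7% of its summed counts. Row 6, with 1.06%, stood at 0.475, 0 and 0 CPM in untreated leaves of day 8, against 1.19, 2.01 and 0.998 CPM in untreated roots, near the detection floor. Row 1 stood at 13.8, 17.7 and 17.4 CPM in SAB leaves, against 71.0, 92.7 and 97.5 CPM in untreated leaves of day 18. Row 3 stood at 0, 19.2 and 15.4 CPM in SAB leaves, against 69.9, 32.9 and 85.1 CPM in untreated leaves of the same day. Both rows were thus lower in every SAB leaf library, and row 3 was listed at 0 in SAB replicate 1 alone among the 12 leaf libraries. In roots of day 18 row 3 was 0 in all SAB libraries and 0.556, 0.330 and 0.434 CPM in untreated ones, called by edgeR's test on single rows (adjusted p = 0.0135), but both groups lie near the detection floor and no fold is given.

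ALMT9 was found in both tissues, with small differences between groups. It stood at 6.09, 7.02 and 5.00 CPM in SAB leaves, against 11.1, 8.18 and 9.14 CPM in untreated leaves of day 18, with no overlap. The log2 fold was -0.63 (SE 0.15, adjusted p = 0.0198 in edgeR). The call was lost without TMM factors (log2 fold -0.46, edgeR adjusted p = 0.0908), in a fit of the compared libraries alone (edgeR adjusted p = 0.131) and without untreated replicate 1 (edgeR adjusted p = 0.0642). Day 8 values of ALMT9 were 9.09, 8.93 and 9.06 CPM in SAB plants, against 10.8, 9.72 and 9.98 CPM in untreated ones, and in roots its 12 libraries lay between 4.23 and 8.39 CPM. Its leaf over root log2 ratio in untreated plants was 0.68 (SE 0.19) at day 18 and 0.99 (SE 0.19) at day 8 with TMM factors, and -0.08 and 0.23 on library totals, so its order between the tissues at day 18 depends on the scaling.

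Of the PEP carboxylases, PPC2 was the one far higher in leaf than in root. It stood at 398, 658 and 629 CPM in SAB leaves of day 18, against 3267, 2571 and 3506 CPM in untreated leaves of that day. At day 8 it stood at 3632, 3772 and 4018 CPM in SAB leaves, against 3231, 3874 and 2931 CPM in untreated leaves. The SAB leaves of day 18 lay below the other 9 leaf libraries. Untreated leaves of day 8 overlapped both other groups, and SAB leaves of day 8 lay above untreated leaves of day 18. PPC2 was 5.48-fold lower in SAB leaves at day 18, a log2 fold of -2.45 (SE 0.20, adjusted p = 0.000110 in edgeR), and the log2 fold at day 8 was 0.17 (SE 0.19, adjusted p = 0.898 in edgeR). The effect differed between the days, by -2.63 (SE 0.27, adjusted p = 0.00409 in edgeR), where 2.46% of all identifiers were called.

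The fall of PPC2 was shared by its rows. Of its 8 rows, 7 were tested in leaf and all 7 were called lower in SAB leaves of day 18. Of all rows tested, 2.59% were called lower there. How reads were shared between similar rows is unknown, so the 7 rows are not independent of each other. The 6 rows above 100 CPM in untreated leaves had log2 folds from -2.60 to -2.34, with edgeR adjusted p from 0.000283 to 0.00154. The remaining called row was 0 in SAB leaves, against 1.16, 0.133 and 0.841 CPM in untreated leaves, too near the floor for a fold. Row 1, with the most counts of the 8, stood at 109, 187 and 177 CPM in SAB leaves, against 929, 724 and 987 CPM in untreated leaves.

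In roots PPC2 was far lower than in leaves and rose with age. It stood at 38.3, 81.7 and 85.1 CPM in SAB roots and 168, 131 and 116 CPM in untreated roots of day 18, and at 19.9, 26.8 and 16.4 CPM in SAB roots and 28, 37.3 and 23.8 CPM in untreated roots of day 8. The SAB and untreated roots did not overlap at day 18, and the log2 fold of -1.0 (SE 0.31, adjusted p = 0.208 in edgeR) did not pass. Untreated roots of day 18 exceeded those of day 8 by 2.26 (SE 0.32, adjusted p = 0.00158 in edgeR), and by 2.1 without the library that stood apart (edgeR adjusted p = 0.00635); 16.5% of identifiers were called in that comparison. The leaf over root log2 ratio in untreated plants was 4.50 (SE 0.31, adjusted p = 1.91e-10 in edgeR) at day 18 and 6.82 (SE 0.35, adjusted p = 1.88e-12 in edgeR) at day 8. Green leaf markers summed to 26.6, 34.5 and 47.7 CPM in SAB roots and 131, 34.1 and 347 CPM in untreated roots of day 18, and their part in the root values of the leaf-high members PPC2, TDT and NADP-MDH was not tested.

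PPC3 as a sum was not called between the tissues with TMM factors, but 4 of its 5 rows were, in both directions. The sum stood at 36.3, 52.2 and 50.0 CPM in SAB leaves of day 18, against 208, 154 and 258 CPM in untreated leaves. At day 8 it stood at 252, 222 and 328 CPM in SAB leaves, against 206, 234 and 148 CPM in untreated leaves. It was 4.41-fold lower in SAB leaves at day 18, a log2 fold of -2.14 (SE 0.24, adjusted p = 0.000537 in edgeR), and the effect differed between the days by -2.57 (SE 0.33, adjusted p = 0.00947 in edgeR). In roots the sum stood at 159, 137 and 172 CPM in SAB and 185, 229 and 272 CPM in untreated plants of day 18. At day 8 the roots stood at 182, 216 and 162 CPM in SAB plants, against 161, 185 and 47.7 CPM in untreated plants, the last being the library that stood apart. Apart from that library, all SAB leaves of day 18 lay below the libraries of every other group. With TMM factors the log2 ratios of leaf over root in untreated plants did not pass, at -0.14 (SE 0.33, adjusted p = 0.733 in edgeR) at day 18 and 0.58 (SE 0.34, adjusted p = 0.140 in edgeR) at day 8. The day 8 ratio was 0.18 without the library that stood apart (edgeR adjusted p = 0.533). On library totals the ratio at day 18 was -0.92 (SE 0.34, adjusted p = 0.0200 in edgeR), called higher in root, and that at day 8 was -0.23 (edgeR adjusted p = 0.553). The order between the tissues thus depends on the scaling.

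Among the 5 rows of PPC3, row 2 carried the leaf signal. It stood at 29.9, 33.1 and 35.1 CPM in SAB leaves, against 202, 142 and 239 CPM in untreated leaves of day 18, and at most 5.97 CPM in any root library. Its log2 ratio of leaf over root in untreated plants was 5.26 (SE 0.43, adjusted p = 1.28e-08 in edgeR) at day 18 and 6.51 (SE 0.46, adjusted p = 1.41e-09 in edgeR) at day 8. Rows 1, 3 and 4 went the other way: at day 18 their leaf over root log2 ratios were -3.21, -4.40 and -6.89 (edgeR adjusted p from 3.36e-09 to 0.00273). Row 2 fell in SAB leaves of day 18, with a log2 fold of -2.56 (SE 0.24, adjusted p = 0.000860 in edgeR). The other 4 rows had log2 folds from -0.45 to 0.27 there, with edgeR adjusted p from 0.772 to 0.998. They were low in these leaves: rows 1 and 3 lay between 2.24 and 9.52 CPM. Rows 4 and 5 lay between 0 and 1.93 CPM, near the detection floor, so their folds are no measure of size. The row called lower was thus the row that was high in leaf, and a fall in rows 4 and 5 could not be resolved.

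PPC1 was the PEP carboxylase with higher levels in root than in leaf. It stood at 286, 267 and 297 CPM in SAB roots and 378, 372 and 367 CPM in untreated roots of day 18, without overlap. The log2 fold was -0.38 (SE 0.15, adjusted p = 0.335 in edgeR). In leaves of day 18 it stood at 93.1, 108 and 93.6 CPM in SAB plants, against 113, 131 and 134 CPM in untreated plants, also without overlap, with a log2 fold of -0.34 (SE 0.16, adjusted p = 0.196 in edgeR). Neither difference passed the test. The leaf over root log2 ratio of untreated plants was -1.56 (SE 0.16, adjusted p = 7.21e-08 in edgeR) at day 18 and -1.24 (SE 0.16, adjusted p = 1.37e-06 in edgeR) at day 8. Its rise with age in untreated roots, 0.51 (SE 0.15, adjusted p = 0.0428 in edgeR), was 0.33 without the library that stood apart (edgeR adjusted p = 0.0204), but the call did not hold up under other settings. In the fits lacking 1 of the day 18 libraries edgeR's adjusted p lay between 0.0966 and 0.0997, and it was 0.0782 on library totals, 0.0504 with no count filter and 0.177 with the compared libraries only.

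**Figure D2:**
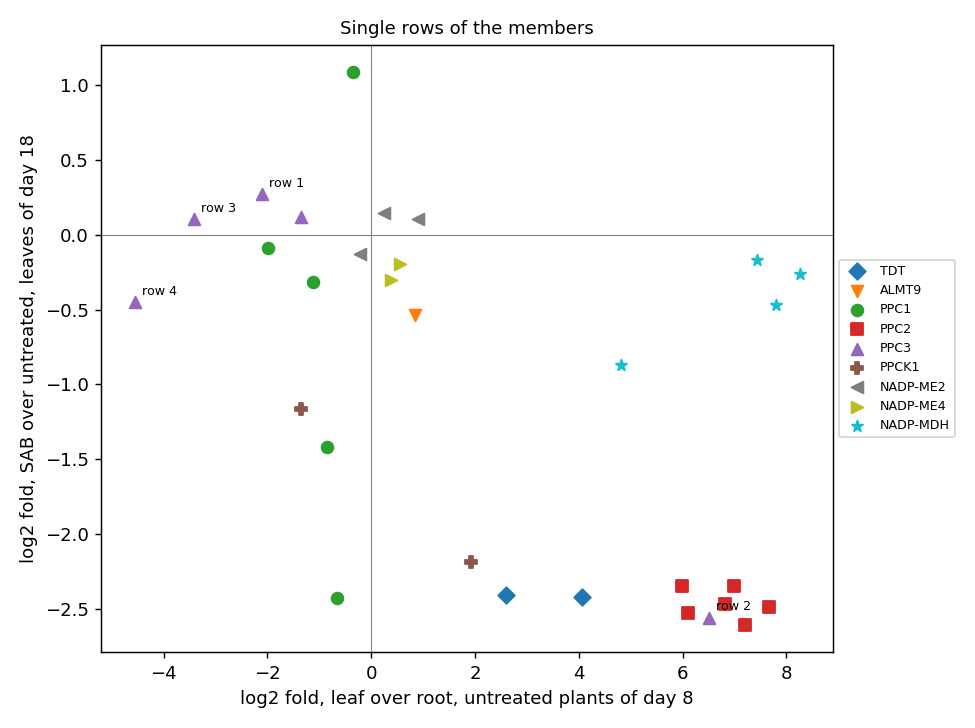
Single rows of the members as log2 folds of SAB over untreated in leaves of day 18 (vertical axis) against leaf over root in untreated plants of day 8 (horizontal axis); 30 rows that reached a group mean of 5 CPM are drawn, and 2 more with a group at 0 are left out. Row 2 of PPC3 lies with the rows of PPC2. Its rows 1, 3 and 4 lie left of 0 on the horizontal axis and between -0.45 and 0.27 on the vertical one. Row 4 of PPC3 was at most 0.685 CPM in leaves of day 18, near the detection floor.

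Of the kinases, PPCK1 was lower in the same SAB leaves as PPC2. It stood at 7.05, 7.92 and 7.26 CPM in SAB leaves, against 36.5, 24.7 and 33.2 CPM in untreated leaves of day 18. At day 8 it stood at 30.5, 35.1 and 34.1 CPM in SAB leaves, against 48.7, 41.0 and 38 CPM in untreated leaves. The SAB leaves of day 18 were the lowest libraries of all 24. PPCK1 was 4.20-fold lower in them than in untreated leaves, or a log2 fold of -2.07 (SE 0.15, adjusted p = 8.55e-05 in edgeR), and this effect differed from that of day 8 by -1.70 (SE 0.21, adjusted p = 0.00817 in edgeR). In roots it stood at 18.4, 17.2 and 15.3 CPM in SAB and 29.4, 24.9 and 20.0 CPM in untreated plants of day 18, without overlap, and the log2 fold of -0.53 (SE 0.16, adjusted p = 0.185 in edgeR) did not pass.

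PPCK1 was the member whose SAB effect was called different between root and leaf at day 18, by 1.54 (SE 0.22, adjusted p = 0.00292 in edgeR) for root minus leaf, where 1.02% of identifiers were called, 0.32% higher. At day 18 the leaf and the root library of a replicate number deviated together. With the leaf and root library of the same treatment, day and number as a block, the difference was called for 2 members. These were PPCK1 at 1.54 (edgeR adjusted p = 0.0191) and PPC2 at 1.41 (edgeR adjusted p = 0.0354). The difference of PPC2 was 1.46 (SE 0.38, adjusted p = 0.0773 in edgeR) without the block. PPC3 had a difference of 1.61 (SE 0.48, adjusted p = 0.114 in edgeR) without it, and TDT one of 1.22 (SE 0.51). At day 8 edgeR and DESeq2 called 0 of the 9 members other than TDT, against 2.08% of identifiers by edgeR. Of the 9, 0 had an unadjusted p under 0.05 in edgeR, against 2485 of 19681 identifiers.

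PPCK1 had 3 rows, 2 of them with opposite tissue orders. Row 3, with 81.7% of the summed counts, stood at 5.79, 6.68 and 6.64 CPM in SAB leaves, against 33.9, 22.9 and 30.8 CPM in untreated leaves of day 18. Its leaf over root log2 ratio in untreated plants was 1.09 (SE 0.14, adjusted p = 4.45e-06 in edgeR) at day 18, against -2.61 (SE 0.53, adjusted p = 0.000627 in edgeR) for row 2. Row 3 fell in SAB leaves of day 18, with a log2 fold of -2.18 (SE 0.15, adjusted p = 0.000221 in edgeR), and row 2, at 1.26, 0.852 and 0.215 CPM in SAB and 2.56, 1.53 and 1.19 CPM in untreated leaves, had a log2 fold of -1.17 (SE 0.64, adjusted p = 0.369 in edgeR). In untreated plants the sum of PPCK1 fell with age in leaf, with a log2 fold of -0.44 (SE 0.15, adjusted p = 0.0338 in edgeR), and rose in root, with 0.93 (SE 0.16, adjusted p = 0.00350 in edgeR). The fall in leaf was not called without any of 4 of the 6 libraries compared (edgeR adjusted p 0.0593 to 0.129).

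PPCK2, the other kinase, was a root transcript. It reached at most 0.407 CPM in any leaf library, or 10.7 estimated counts. In roots of day 18 it stood at 9.33, 6.84 and 3.78 CPM in SAB plants, against 4.10, 4.57 and 5.77 CPM in untreated plants, which overlapped. At day 8 it stood at 1.98, 2.38 and 2.84 CPM in SAB roots and 1.19, 2.67 and 3.01 CPM in untreated roots, also overlapping. Its log2 folds of SAB over untreated were 0.48 (SE 0.36, adjusted p = 0.669 in edgeR) and 0.07 (SE 0.36, adjusted p = 0.955 in edgeR). The leaf over root log2 ratio in untreated plants was -5.59 (SE 0.61, adjusted p = 1.34e-07 in edgeR) at day 18 and -5.67 (SE 0.67, adjusted p = 4.05e-07 in edgeR) at day 8.

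**Figure D3:**
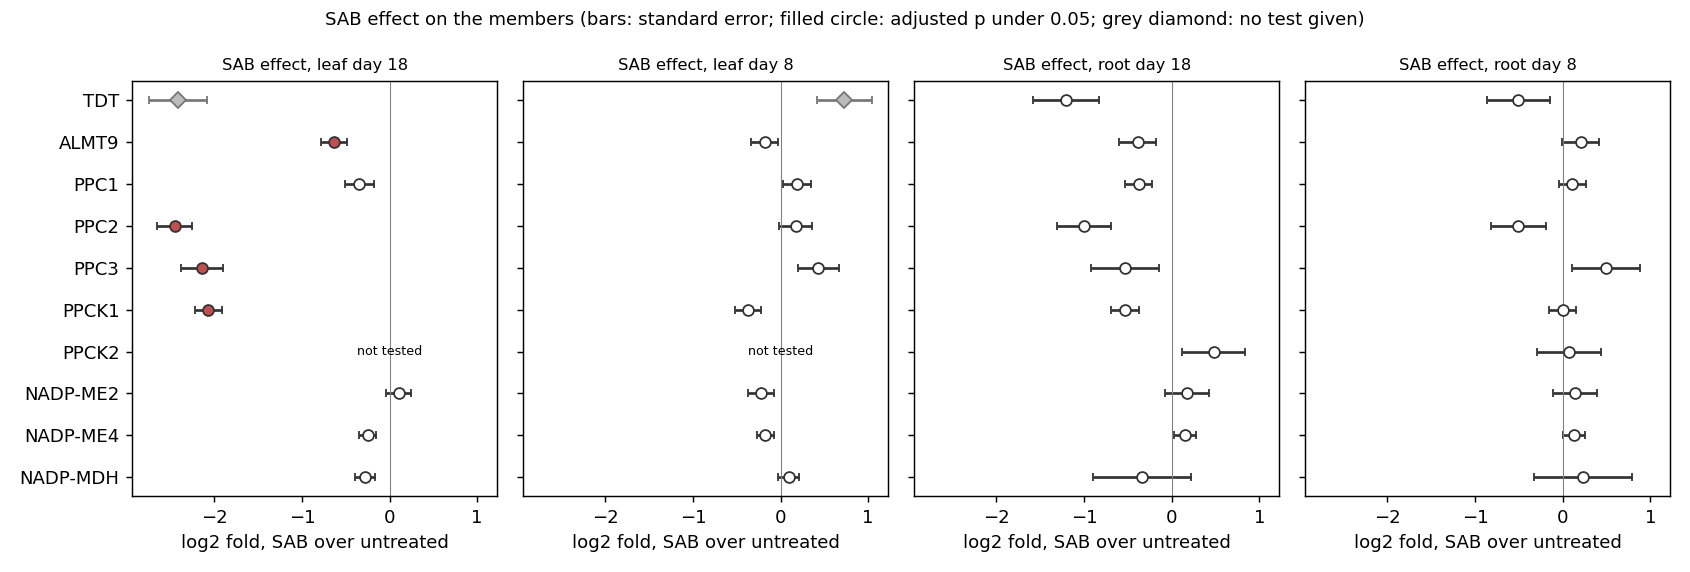
Log2 fold of SAB over untreated for each member, with its standard error, in leaf and root at day 18 and day 8; filled circles passed edgeR's test, open circles did not, and the grey diamonds of TDT in leaf carry no test. Filled points occur only in the panel of day 18 leaves, where PPC2, PPC3 and PPCK1 lie near -2.45, -2.14 and -2.07 and ALMT9 at -0.63.

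Neither malic enzyme was called in any of the 4 treatment comparisons. NADP-ME2 stood at 138, 126 and 194 CPM in SAB leaves, against 151, 131 and 150.0 CPM in untreated leaves of day 18, overlapping, with a log2 fold of 0.10 (SE 0.14, adjusted p = 0.695 in edgeR). NADP-ME4 stood at 77.6, 70.7 and 67.6 CPM in SAB leaves, against 88.0, 79.4 and 91.8 CPM in untreated leaves, without overlap, with a log2 fold of -0.25 (SE 0.10, adjusted p = 0.122 in edgeR). In roots the 2 enzymes had log2 folds from 0.13 to 0.18 at both days, and edgeR adjusted p from 0.705 to 0.875. Without the library that stood apart, the folds of day 8 were -0.13 for NADP-ME2 and -0.0078 for NADP-ME4 (edgeR adjusted p = 0.960 and 1), so their direction rested on it. The same held for PPC1 in roots of day 8, at 0.11 with that library and -0.067 without it. NADP-ME2 was called with age. In untreated leaves it stood at 151, 131 and 150.0 CPM at day 18 and 400.1, 372 and 396 CPM at day 8, a log2 fold of -1.43 (SE 0.15, adjusted p = 3.50e-05 in edgeR). All 3 of its rows above 10 CPM fell with age in untreated leaves, by 1.40, 1.59 and 1.31 on the log2 scale for rows 1, 2 and 5.

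Root levels of NADP-ME2 were 474, 431 and 576 CPM in SAB and 448, 379 and 499 CPM in untreated plants of day 18, and 269, 311 and 305 CPM in SAB and 343, 294 and 158 CPM in untreated plants of day 8. Its leaf over root log2 ratio at day 18 was -1.61 (SE 0.21, adjusted p = 1.88e-06 in edgeR). At day 8 the ratio of 0.56 (SE 0.21, adjusted p = 0.0268 in edgeR) was 0.29 without the library that stood apart (edgeR adjusted p = 0.141) and -0.23 on library totals. In that library row 2 of NADP-ME2 stood at 17.9 CPM, against 124 and 110.2 CPM in the other two, while row 1 stood at 109 CPM against 147 and 120.3 CPM. NADP-ME4 also fell with age in untreated leaves, with a log2 fold of -0.46 (SE 0.10, adjusted p = 0.00331 in edgeR), and in roots its 12 libraries lay between 64.7 and 99.3 CPM.

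NADP-MDH was found in leaf and was near 0 in root, like PPC2 in its tissue order but not in its treatment values. It stood at 254, 255 and 274 CPM in SAB leaves, against 336, 276 and 347 CPM in untreated leaves of day 18. At day 8 it stood at 285, 287 and 341 CPM in SAB leaves, against 307, 289 and 252 CPM in untreated leaves. The groups of day 18 did not overlap and those of day 8 did, and neither passed, with log2 folds of -0.28 (SE 0.12, adjusted p = 0.141 in edgeR) and 0.09 (SE 0.12, adjusted p = 0.920 in edgeR). The 12 root libraries lay between 0.697 and 3.74 CPM, and the groups overlapped. The leaf over root log2 ratio in untreated plants was 7.33 (SE 0.48, adjusted p = 7.98e-11 in edgeR) at day 18 and 7.87 (SE 0.49, adjusted p = 3.94e-11 in edgeR) at day 8.

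Between the tissues, 3 of the 9 members other than TDT were higher in leaf and 3 higher in root among untreated plants of day 18, and 6 and 2 at day 8, in fits where 61.5% and 61.6% of identifiers were called. The ratios depend on the scaling, since without TMM factors the median of all identifiers lay lower by 0.76 at day 18 and by 0.75 at day 8 on the log2 scale. TDT, PPC2 and NADP-MDH stayed higher in leaf and PPC1 and PPCK2 higher in root on either scaling. At day 18 PPC3, PPCK1 and NADP-ME4 were called higher in root on library totals only (edgeR adjusted p = 0.0200, 0.0139 and 3.78e-05). Of all identifiers, those higher in leaf and higher in root made up 28% and 33.4% at day 18 and 29% and 32.7% at day 8. In untreated roots 3 of 10 members rose with age and 0 fell, against 8.22% and 8.25% of identifiers. In untreated leaves 0 of the 8 members other than TDT rose and 3 fell, against 20% and 20.5% of identifiers and 40.6% called in all.

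The change of the treatment effect with age was called in leaf for 3 of the 8 members other than TDT (PPC2, PPC3 and PPCK1), all lower at day 18, where 1.47% of identifiers were called lower. In root it was called for 0 of 10 by edgeR and DESeq2, where 1.07% were called by edgeR in either direction. There 2 members had an unadjusted p under 0.05 in edgeR, as had 2542 of 18973 identifiers. Each of the 12 fits that left out 1 library called 3 of the 8, members chosen with earlier results of these data known. On single rows, 10 of 35 member rows other than those of TDT were called lower in SAB leaves of day 18 and 0 higher, against 5.47% of all rows tested, 2.59% lower and 2.89% higher. The 10 were 7 rows of PPC2 and 1 row each of ALMT9, PPC3 and PPCK1. In roots of day 18, 1 of 40 rows was called, against 0.388% of all rows. At day 8 edgeR called 0 of the 35 leaf rows other than those of TDT, against 0.047% of all rows. In roots of day 8 edgeR called 0 of 40, against 0% of all rows. There 3 rows had an unadjusted p under 0.05 in edgeR, and DESeq2 called 1. With the 4 tested rows of TDT counted in, 2 of 39 leaf rows of day 8 had an unadjusted p under 0.05 in edgeR, and DESeq2 called 1. These counts may include rows of TDT, whose leaf values entered its choice, so they are a description and no test.

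Other measures moved beside these falls. The 6 green leaf markers summed to 42279 to 50201 CPM in SAB leaves and 68256 to 88542 CPM in untreated leaves. All 6 were called lower in edgeR's test, with log2 folds from -1.09 to -0.42, and their part in the members' falls was not tested. The 5 guard cell markers summed to 90.2 to 108 CPM in SAB leaves and 88.2 to 105 CPM in untreated leaves, and edgeR and DESeq2 called 0 of 5, with 1 at an unadjusted p under 0.05. In roots of day 8, 1 of these 5, AT5G46240, was called (log2 fold 3.52, edgeR adjusted p = 0.0199). The 5 root markers summed to 8.59 to 14.7 CPM in SAB leaves and 7.29 to 20.4 CPM in untreated leaves, with 2 of them at 0 in all SAB leaves and 1 at 0 in all untreated leaves of that day.

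A list of 39 other Arabidopsis loci of malate metabolism and transport, 34 of them in the table, gave no single direction. At day 18 in leaf, 5 of 29 tested were higher in SAB plants and 4 lower, with a median log2 fold of -0.01, against 14.4% of all identifiers called. The list, like the members, was chosen with results of these data known. The lower ones included AT3G47520 of the malate dehydrogenases, at 38.5 ± 7.65 CPM in SAB leaves, against 83.0 ± 4.96 CPM in untreated leaves (SD, n = 3), a log2 difference of -1.09 (SE 0.15, adjusted p = 0.00131 in edgeR). AT5G12860 of the plastid and mitochondrial carriers stood at 148 ± 18.7 CPM in SAB leaves, against 341 ± 78.7 CPM in untreated leaves, a log2 difference of -1.19 (SE 0.17, adjusted p = 0.00156 in edgeR). These 2 were also the loci of the list whose leaf effect was called lower at day 18 than at day 8, by 1.13 and 1.17 on the log2 scale (edgeR adjusted p = 0.0291 and 0.0370), and 0 were called higher.

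The higher loci in SAB leaves of day 18 came from several groups. AT4G17970 of the ALMT family stood at 20.0 ± 5.04 CPM in SAB leaves, against 10.9 ± 0.374 CPM in untreated leaves, a log2 difference of 0.90 (SE 0.18, adjusted p = 0.00924 in edgeR). The carriers AT2G22500 and AT4G24570 had log2 folds of 1.1 (SE 0.24, adjusted p = 0.0137 in edgeR) and 1.22 (SE 0.29, adjusted p = 0.0191 in edgeR), and AT2G22780 of the malate dehydrogenases one of 0.39 (SE 0.09, adjusted p = 0.0190 in edgeR). In leaves of day 8, in roots of day 18 and in roots of day 8 edgeR called 0 of the list, with 2, 3 and 4 loci at an unadjusted p under 0.05, and DESeq2 called 2, 1 and 3. Of all identifiers tested, 1597, 2349 and 1947 had an unadjusted p under 0.05 in edgeR there. Both carriers differed between the tissues at day 8. AT4G24570 stood at 307 ± 67.1 CPM in SAB leaves, against 145 ± 21.1 CPM in untreated leaves of day 8, but at 107 ± 24.9 CPM in SAB roots and 299 ± 86.2 CPM in untreated roots. The root minus leaf difference was -2.56 (SE 0.42, adjusted p = 0.00188 in edgeR) for it and -2.06 (SE 0.41, adjusted p = 0.00727 in edgeR) for AT2G22500. In root the effect on AT4G24570 was higher at day 18 than at day 8, by 2.1 (SE 0.40, adjusted p = 0.0418 in edgeR).

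The identifiers most like TDT over the 24 libraries were AT3G06070, AT5G15900, AT5G57660, AT5G60710 and AT2G19660, with Pearson correlations of log2(CPM + 1) from 0.964 to 0.982 among 15968 identifiers compared. The 24 points share the leaf and root difference; over the 12 leaf libraries alone the correlations were 0.852 to 0.980. AT5G15900, the highest of them within leaf, stood at 21.7 ± 4.68 CPM in SAB leaves, against 49.1 ± 5.57 CPM in untreated leaves of day 18, and at 42.9 ± 1.85 CPM in SAB leaves, against 32.5 ± 1.07 CPM in untreated leaves of day 8 (SD, n = 3). It was picked for its likeness to TDT over these libraries, so these levels restate that choice. Of the other members, PPC3 and PPC2 had the highest correlations with TDT within leaf, at 0.818 and 0.812. These use the leaf values by which TDT was chosen, so they describe the same falls and are no test.

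PPC1 also showed a pattern between its rows, chosen for description after the values were seen. The shares of rows 4 and 5 of PPC1 differed between replicates. At day 18, row 4 made up 2.23%, 2.03% and 59.3% of rows 4 and 5 together in SAB leaf replicates 1, 2 and 3, and 0.834%, 1.47% and 57.5% in the SAB root replicates of the same numbers. In untreated plants it made up 57.0%, 96.8% and 64.9% in leaf and 58.1%, 96.9% and 60.8% in root. Leaf and root of the same number thus differed by 0.141 to 4.15 percentage points at day 18. At day 8 leaf and root of the same number differed by 9.82 to 64.0 points. The sum over rows hides this, and neither row was called between SAB and untreated leaves of day 18 (edgeR adjusted p = 0.263 for row 4 and 0.701 for row 5).

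**Figure D4:**
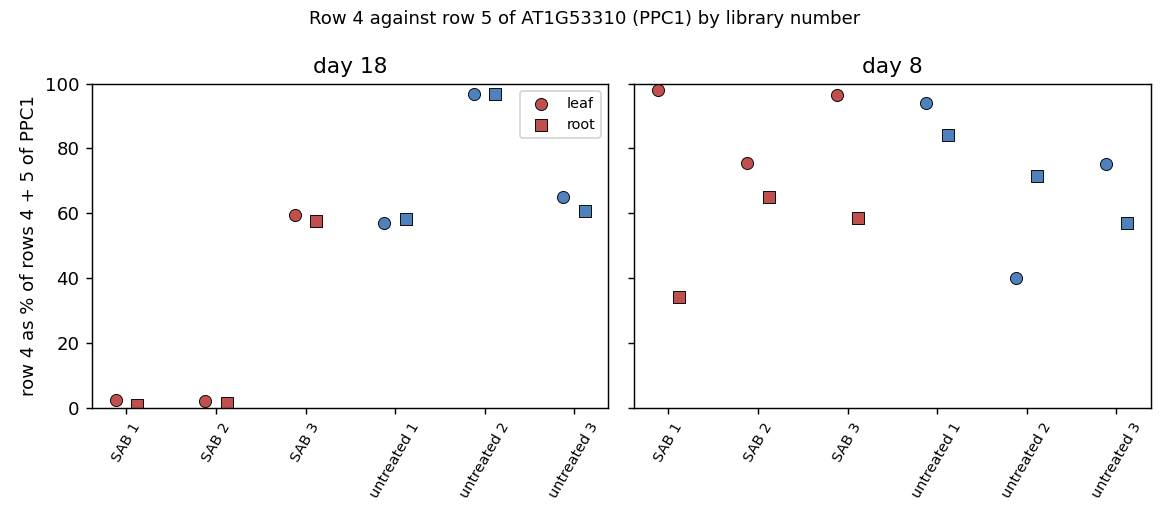
Row 4 of PPC1 as a percentage of rows 4 and 5 together, by treatment and replicate number, with circles for leaf and squares for root; day 18 on the left and day 8 on the right. Leaf and root points of the same number nearly coincide at day 18, with differences up to 4.15 points, and lie 9.82 to 64.0 points apart at day 8.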

How the data were processed

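Polyadenylated RNA of leaves and roots was sequenced in 24 libraries with paired reads of 100 bases, per the labels. The deposited table holds estimated counts per row; kallisto, Trim Galore and Bowtie2 are named in the submitters' processing notes, without versions, and neither the reference transcripts nor the use of strand is given there. Of the deposited values above 0, 0.991% were exactly whole, so 1 unit need not be 1 read; values were rounded to whole numbers for the tests, and levels in CPM use them unrounded. Since how reads were shared between similar rows is also unknown, levels of single rows and near-identical genes are uncertain. Identifiers are Arabidopsis locus codes, none of which was found in the RefSeq gene table at hand; member names come from the set's own definition and roles from Arabidopsis.

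Counts were summed over the rows of an identifier. Tests used edgeR 4.0.16 with limma 3.58.1 in R 4.3.3 (TMM scaling, filterByExpr with a minimum count of 10 and a minimum total of 15, robust quasi-likelihood fit, Benjamini-Hochberg adjustment, threshold 0.05), tested on simulated data. Treatment and age contrasts were fitted on the 12 libraries of a tissue (17706 identifiers tested in leaf, 18973 in root), leaf and root contrasts on all 24 (19681 tested). Alternatives were RLE factors, library totals, no count filter, DESeq2 1.42.0, a replicate block, only the compared libraries, single rows, and leaving out each library. The block was the replicate number in fits of 1 tissue. In fits of both tissues it was the leaf and root pair of the same treatment, day and number, at both days. Members, pathway and marker lists and tests were chosen with earlier results of these data known. Members past the threshold and TDT were to be named, and rows past it or holding at least 25% of a member's counts; other member values were added after they were seen. In the pathway list at most 6 loci called in leaves of day 18 were to be named. Likeness to TDT used Pearson correlation of log2(CPM + 1) over identifiers with a group mean of at least 5 CPM.

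Deviations from group means correlated between the leaf and the root library of a number at day 18 (0.386 to 0.478) and less at day 8 (0.00746 to 0.155), so the numbers were taken to pair leaf and root at day 18 only. SAB and untreated libraries (-0.0701 to 0.205), and day 18 and day 8 libraries (-0.160 to 0.0374), were not paired.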

Additional observations from a re-analysis of the deposited data

Results flagged for a closer look

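Effects of the treatment that differed between days or tissues by edgeR's test of the difference itself are listed here, as log2 differences. The leaf values of TDT and its row 1 are set beside them as a description with no test. In leaf the SAB effect was lower at day 18 than at day 8 for PPC2 by -2.63, for PPC3 by -2.57 and for PPCK1 by -1.70, and TDT, chosen with this known, had -3.14. Single rows that differed in the same way were rows 1, 3, 4, 5, 7 and 8 of PPC2, at -2.64, -2.72, -2.57, -2.61, -2.75 and -2.53. Row 2 of PPC3 had -3.00, row 3 of PPCK1 had -1.84, and row 1 of TDT, chosen with its sum, had -3.16. Between root and leaf at day 18 the SAB effect on PPCK1 differed by 1.54, and that on its row 3 by 1.76. In root, row 3 of TDT had a fitted difference between the days of -6.61, which rests on SAB libraries of day 18 at 0 and untreated ones under 1 CPM, and is no measure of size.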

How the results depend on the processing

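In leaves of day 18, PPC2, PPC3 and PPCK1 were called lower in SAB plants under every alternative run, and leaving out a library gave 3 to 4 of the 8 members other than TDT called. Among leaf over root ratios called with TMM factors, library totals turned those of NADP-ME2 (-0.23) and NADP-ME4 (-0.17; its rows 1 and 2, -0.24 and -0.074) at day 8. They also turned that of ALMT9 (-0.085; its row 1, -0.025) at day 18. Among ratios not called with TMM factors, PPC3 at day 8 turned from 0.58 to -0.23. PPCK1 at day 18 turned from 0.35 to -0.42 (edgeR adjusted p = 0.0139). PPC3 (-0.92, edgeR adjusted p = 0.0200) and NADP-ME4 (-0.79, edgeR adjusted p = 3.78e-05) were called higher in root at day 18 on library totals. The median of all identifiers moved by -0.75 and -0.76 in these contrasts. It also moved by 0.17 for the SAB effect in leaves of day 18, 0.25 for its change with age in leaf and -0.14 in root, 0.11 in roots of day 8, and 0.20 and -0.20 for root minus leaf at day 8 and day 18. Of the other values that were to be named, 717 kept direction and call, 46 lost the call and 6 turned. Leaving out 1 library, 818 kept both, 87 lost the call and 1 gained it. These counts leave out the turns of PPC3 and PPCK1 given above.

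Counts of all identifiers called moved more than those of the members, and the cause was not tested. SAB in leaves of day 8 had 75 called, 391 by DESeq2, 226 with the compared libraries only, 22 as rows and 2 to 62 without 1 library. Leaves of day 18 had 2555, 735 with the compared libraries only and 1770 to 2400 without 1 library. Roots of day 8 had 14, 6 on library totals, 539 by DESeq2, 0 with the compared libraries only, 0 as rows and 0 to 67 without 1 library. Roots of day 18 had 145, 780 by DESeq2, 6 with the compared libraries only and 53 to 164 without 1 library. The change with age had 435 in leaf, 727 on library totals, 1389 by DESeq2, 207 as rows and 48 to 599 without 1 library. In root it had 203, 1029 by DESeq2, 129 as rows and 10 to 548 without 1 library. Age in untreated roots had 3126, 4457 by DESeq2, 1413 with the compared libraries only and 1992 to 3063 without 1 library. There 3 members were called, 5 by DESeq2 and 2 to 4 without 1 library. Leaf over root had 12128 at day 8 and 12094 at day 18, and 21518 and 20803 as rows. Root minus leaf at day 8 had 410, 725 by DESeq2 and 249 to 485 without 1 library. At day 18 it had 201, 491 on library totals, 706 by DESeq2, 93 as rows and 134 to 329 without 1 library, with 1 member called, 4 by DESeq2 and 1 to 2 without 1 library.

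With the replicate number as a block, SAB calls numbered 3 in roots of day 8 and 74 in roots of day 18, and the change with age 149 in leaf and 8 in root. In fits of both tissues the block was the leaf and root pair of the same treatment, day and number, and it called 2 members for root minus leaf at day 18. At edgeR's adjusted p the number block lost PPCK1 with age in leaf (0.0531) and PPC1 with age in root (0.0549). The pair block gained PPC3 for leaf over root at day 8 (0.77, 0.0274), where the numbers do not pair the libraries. Neither block changed any other member call. With 3 libraries a group, and low levels of PPCK2 in leaf and of TDT and NADP-MDH in root, small differences there could not be resolved.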
